A study of Mus musculus with 27 samples.

Results

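The 10 genes described here encode the sheet- and network-forming collagens of basement membranes and 4 related non-fibrillar collagens: the 6 type IV chains (Col4a1 to Col4a6), Col8a1, Col13a1, Col15a1 and Col18a1. They were taken as a list of names, and all 10 were found among the 53379 genes of the count table. Of these 10, 9 passed the filter on low counts and were tested among 18758 genes, and Col4a6 did not pass. The libraries were made from hepatic stellate cells (HSCs), the vitamin A storing pericytes of the liver, which were sorted from perfused livers of male Balb/c mice by their ultraviolet fluorescence and collected without culture. Healthy HSCs (4 libraries) came from untreated mice of 10 to 12 weeks. Acute injury was a single intraperitoneal injection of carbon tetrachloride (CCl4), a hepatotoxin, in mice of 10 to 12 weeks, with HSCs taken after 24 h (3 libraries), 72 h (4 libraries) or 7 d (4 libraries). Chronic injury was semi-weekly injection for 4 weeks from an age of 8 to 10 weeks, with HSCs taken 24 h, 72 h or 14 d after the last dose (4 libraries each). Every dose was 0.5 µL per gram of body weight in mineral oil, and the healthy mice received no oil.

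Type IV collagen assembles outside the cell into a flexible sheet rather than a fibre, and that sheet is the scaffold of every basement membrane. The α1 and α2 chains, from Col4a1 and Col4a2, join in 1 protomer found in nearly all tissues, while the α3, α4, α5 and α6 chains form protomers of restricted sites such as the kidney glomerulus. Type VIII is a short-chain collagen that builds lattices around vessels, type XIII spans the plasma membrane at sites of adhesion, and types XV and XVIII are proteoglycan collagens of the basement membrane zone whose C-terminal fragments, endostatin among them, are released by proteases. The space of Disse, where HSCs lie, has no continuous basement membrane in the healthy liver, and basement membrane material is known to accumulate there in fibrosis. Hepatocytes are a known source of type XVIII collagen in the liver.

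The 6 type IV genes lie in 3 head-to-head pairs in the GRCm38 annotation, so that each pair is read outwards from neighbouring starts. Col4a1 (chr8:11198423-11312826, minus strand) and Col4a2 (chr8:11312805-11449287, plus strand) overlap by 22 bases at their 5′ ends. Col4a4 and Col4a3 on chromosome 1 start 71 bases apart, and Col4a6 and Col4a5 on chromosome X start 1308 bases apart. The shared start of Col4a1 and Col4a2, the interval between Col4a4 and Col4a3, and the bases just upstream of the 3 genes with the largest rises are shown, since the pairs and those genes are what the comparisons below turn on. They were read from the RefSeq promoter table (GRCm38.p6), which held windows for 9 of the 10 genes and none for Col4a3. For Col15a1 the RefSeq start lies before the start at base 47208161 of the gene annotation, so its stretch ends short of the latter. Capitals mark GGGCGG and CCAAT on either strand.
Col4a1 and Col4a2, shared 5′ end, chr8:11312805-11312826, plus strand: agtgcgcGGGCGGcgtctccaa
Between Col4a4 and Col4a3, chr1:82586850-82586920, plus strand: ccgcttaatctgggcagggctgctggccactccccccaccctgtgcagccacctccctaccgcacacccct
Upstream of Col4a5, chrX:141475169-141475384, plus strand: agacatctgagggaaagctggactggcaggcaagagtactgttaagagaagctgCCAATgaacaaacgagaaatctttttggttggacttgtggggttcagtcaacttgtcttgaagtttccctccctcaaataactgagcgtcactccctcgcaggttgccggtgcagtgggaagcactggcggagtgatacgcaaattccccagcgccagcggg
Upstream of Col8a1, chr16:57754738-57754987, minus strand: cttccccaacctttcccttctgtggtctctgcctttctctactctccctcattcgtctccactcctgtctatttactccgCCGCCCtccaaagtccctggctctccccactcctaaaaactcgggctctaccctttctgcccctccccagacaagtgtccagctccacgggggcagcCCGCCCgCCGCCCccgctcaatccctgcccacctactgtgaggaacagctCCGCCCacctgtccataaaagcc
Upstream of Col15a1, chr4:47207762-47208011, plus strand: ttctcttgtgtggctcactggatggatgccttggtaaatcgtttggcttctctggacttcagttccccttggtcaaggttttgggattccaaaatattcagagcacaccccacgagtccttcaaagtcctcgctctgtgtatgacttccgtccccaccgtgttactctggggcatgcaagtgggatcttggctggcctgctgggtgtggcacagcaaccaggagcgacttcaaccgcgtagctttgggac
Within the RefSeq windows of 300 bases (from 250 before to 50 after each start), GGGCGG, the core of the GC box, had 4 matches at Col8a1, 3 at Col4a2 and 1 each at Col4a1, Col4a5 and Col4a6, and 35.7% of all 32851 promoter windows held at least 1. CCAAT had 1 match in each of the windows of Col4a1 and Col4a2, which overlap, and 1 at Col4a5, against 37.4% of all windows. The windows of Col15a1 and Col4a4 held neither motif. TATAAA was found at Col13a1, against 13.6% of all windows. Of the 2 windows of Col18a1, the one that begins at base 77166481 of chromosome 10 held 3 GGGCGG matches and 1 CCAAT match, and the other held none. Motifs were counted separately on both strands, and a match is a description of the letters only.

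Total counts ranged from 6314801 to 13052838 per library. With a gap between 7580709 and 10792560 counts, 8 libraries were of lower depth. They were the entire chronic 14 d group and replicates 1 and 2 at both chronic 24 h and chronic 72 h, so that for chronic 14 d depth and group cannot be told apart. All 10 stellate cell markers checked (Lrat, Reln and Lhx2 among them) were detected in every group, with summed levels of 7328 to 27277 CPM. At chronic 24 h 6 of the 10 were called lower than healthy and 1 was called higher. Summed macrophage markers ranged from 73.0 to 1919 CPM and cholangiocyte markers from 4.08 to 143 CPM. Markers of other cell types are given below beside the results of some single genes, not of all, whether or not they move with them. Where none is given beside a gene, a shift in other cells is not excluded. The study's methods describe its repeats as biological and as separate experiments, while the labels do not tie the libraries to single mice, so p-values measure the spread between libraries. Levels are CPM, the counts of a gene in every 1000000 counts of its TMM-scaled library, fold changes with their SE and adjusted p-values are from edgeR's quasi-likelihood test over all 27 libraries, and a gene was called when its adjusted p was below 0.05 and its change exceeded 2-fold. In bulk libraries, fewer cells of a type and less RNA per cell cannot be told apart.

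The list did not move together. Col4a1 and Col4a2 were highest 24 h after a CCl4 dose, whether the first or the last of a 4-week course, stayed modestly above the healthy level at acute 72 h, and were at or below it from chronic 72 h on. Col4a5 and Col8a1 overlapped the healthy level 24 h after a first injury and Col15a1 was still below 8 CPM there. These 3 genes rose later in the acute course, each at its own time, and were high 24 h after the chronic course. Col8a1 peaked at acute 72 h and had come down by acute 7 d (means 489 and 93.4 CPM). Col15a1 was still low at acute 72 h and rose by acute 7 d (means 6.65 and 64.4 CPM), and Col4a5 was raised at both times. Col18a1 was lowest 24 h after acute injury, and the remaining genes were measured at low levels.

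Against healthy HSCs, 3 of the 9 tested genes were higher and 1 was lower at 24 h after acute injury, where 9.41% of all genes tested were called higher and 12.5% lower. At acute 72 h 3 were higher and 1 lower, against 8.23% and 4.33% of all genes. At acute 7 d 2 were higher and none lower, against 9.23% and 5.64% of all genes. At chronic 24 h 5 were higher and none lower, against 11.2% and 8.11% of all genes. At chronic 72 h 3 were higher and none lower, against 7.88% and 4.2%. At chronic 14 d 3 were higher and none lower, against 4.55% and 1.17%. The median log2 fold change over the 9 genes was 1.41 at chronic 24 h, 0.96 at chronic 72 h, 1.03 at chronic 14 d, 0.55 at acute 24 h, 0.63 at acute 72 h and 0.52 at acute 7 d, where that of all genes lay between -0.12 and 0.01. Where none was called lower by edgeR, DESeq2 also called none, and at an unadjusted edgeR p below 0.05 there were 0 lower at acute 7 d, 1 (Col4a4) at chronic 24 h, 0 at chronic 72 h and 2 (Col4a1 and Col4a2) at chronic 14 d. These 6 comparisons share the same 4 healthy libraries.

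**Figure D1:**
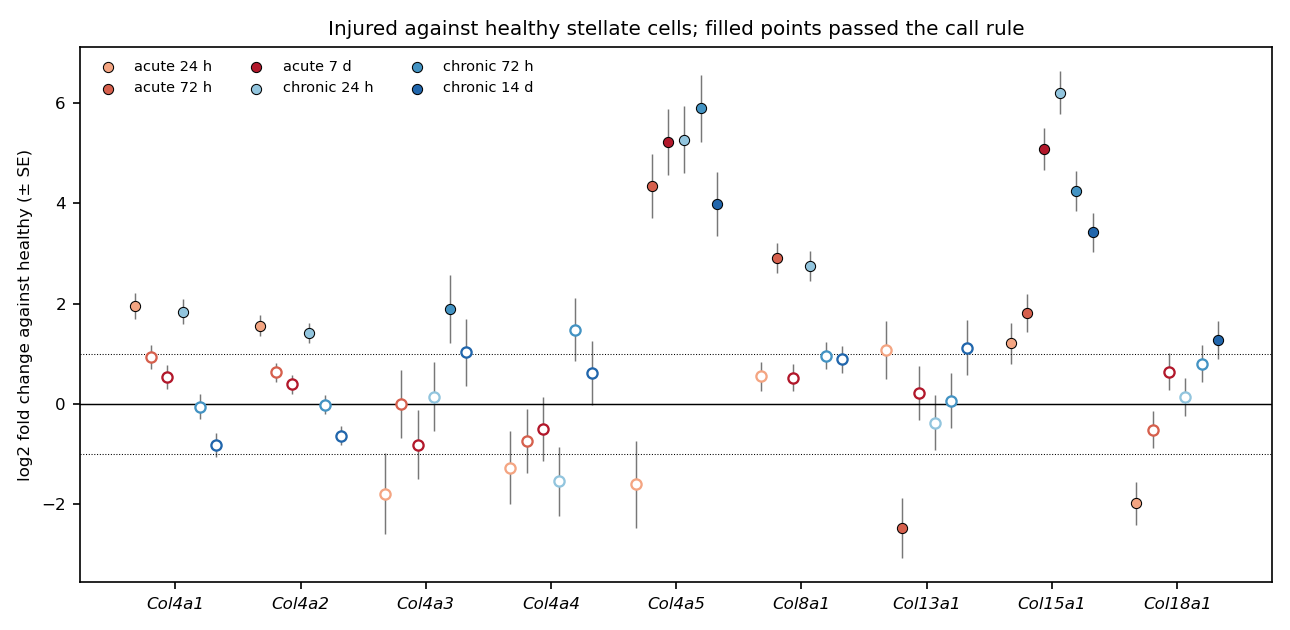
Log2 fold change (± SE) of each tested gene in the 6 injured groups against healthy HSCs, in edgeR's fit over 27 libraries; filled points were called, open points were not, and dotted lines mark 2-fold. Col4a1 and Col4a2 were called at both 24 h times only, Col15a1 in all 6 groups and Col4a5 in every group but acute 24 h.

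Col4a1 (ENSMUSG00000031502), the α1 chain, was, with Col4a2, the most abundant of the 10 genes per kilobase of exon in every group. Its level was 872, 1117, 897 and 793 CPM in the 4 healthy libraries, 3909, 2616 and 4118 CPM at acute 24 h and 2059, 2550, 3830 and 4747 CPM at chronic 24 h. Every 24 h library of either course stood above every healthy one. The rise was 3.86-fold at acute 24 h (log2 1.95, SE 0.26, edgeR adjusted p = 5.15e-06) and 3.59-fold at chronic 24 h (log2 1.84, SE 0.25, edgeR adjusted p = 4.9e-06). Among the chronic 24 h libraries, the 2 of lower depth had the 2 lowest values, and the log2 fold change was 2.24 in the higher-depth libraries alone.

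Col4a2 (ENSMUSG00000031503), the α2 chain that is built into the same protomer, followed the same course. It stood at 709, 816, 860 and 646 CPM in healthy HSCs, 2410, 1839 and 2458 CPM at acute 24 h, and 1459, 1825, 2199 and 2570 CPM at chronic 24 h, again with no overlap between injured and healthy libraries. The rise was 2.95-fold at acute 24 h (log2 1.56, SE 0.21, edgeR adjusted p = 4.71e-06) and 2.66-fold at chronic 24 h (log2 1.41, SE 0.20, edgeR adjusted p = 7.25e-06). Neither gene differed detectably between the first and the repeated injury at 24 h: the log2 difference, chronic minus acute, was -0.11 (SE 0.26, edgeR adjusted p = 0.816) for Col4a1 and -0.15 (SE 0.21, edgeR adjusted p = 0.649) for Col4a2. The antisense gene Gm15419 overlaps Col4a2 exons, and without strand its reads cannot be told apart from those of Col4a2. The same holds for the 22 bases shared by Col4a1 and Col4a2, and the ratio of these chains below has this limit too.

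After the 24 h peak both chains came down. At acute 72 h Col4a1 was at 1959, 1799, 1576 and 1739 CPM, above every healthy library but 1.92-fold, just under the fold required for a call (edgeR adjusted p = 0.00661), and Col4a2 was at 1.54-fold (edgeR adjusted p = 0.0217). The step down from acute 24 h was a log2 change of -1.0 (SE 0.26, edgeR adjusted p = 0.0059) for Col4a1, at the edge of the 2-fold rule, and -0.93 (SE 0.21, edgeR adjusted p = 0.00179) for Col4a2, short of it. Without acute 24 h replicate 1 or replicate 3 the Col4a1 step was -0.93 or -0.88 and was not called. At acute 7 d the means were 1326 ± 308 CPM (SD, n = 4) for Col4a1 and 991 ± 179 CPM (SD, n = 4) for Col4a2, and neither passed the test against healthy.

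In the chronic course the return went further. Col4a1 stood at 1036, 672, 1146 and 703 CPM at chronic 72 h and at 483, 401, 611 and 592 CPM at chronic 14 d, so that the 72 h libraries overlapped the healthy ones and the 14 d libraries all lay below them. Col4a2 read 708, 640, 968 and 706 CPM at chronic 72 h and 483, 386, 561 and 535 CPM at chronic 14 d, the same arrangement. The log2 difference from healthy at chronic 72 h was -0.05 (SE 0.24) for Col4a1 and -0.01 (SE 0.19) for Col4a2. At chronic 14 d it was -0.82 (SE 0.24, edgeR adjusted p = 0.0362) and -0.63 (SE 0.19, edgeR adjusted p = 0.0445), below 2-fold in both cases. With depth class as a term these became -0.31 (edgeR adjusted p = 0.619) and -0.20 (edgeR adjusted p = 0.695).

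**Figure D2:**
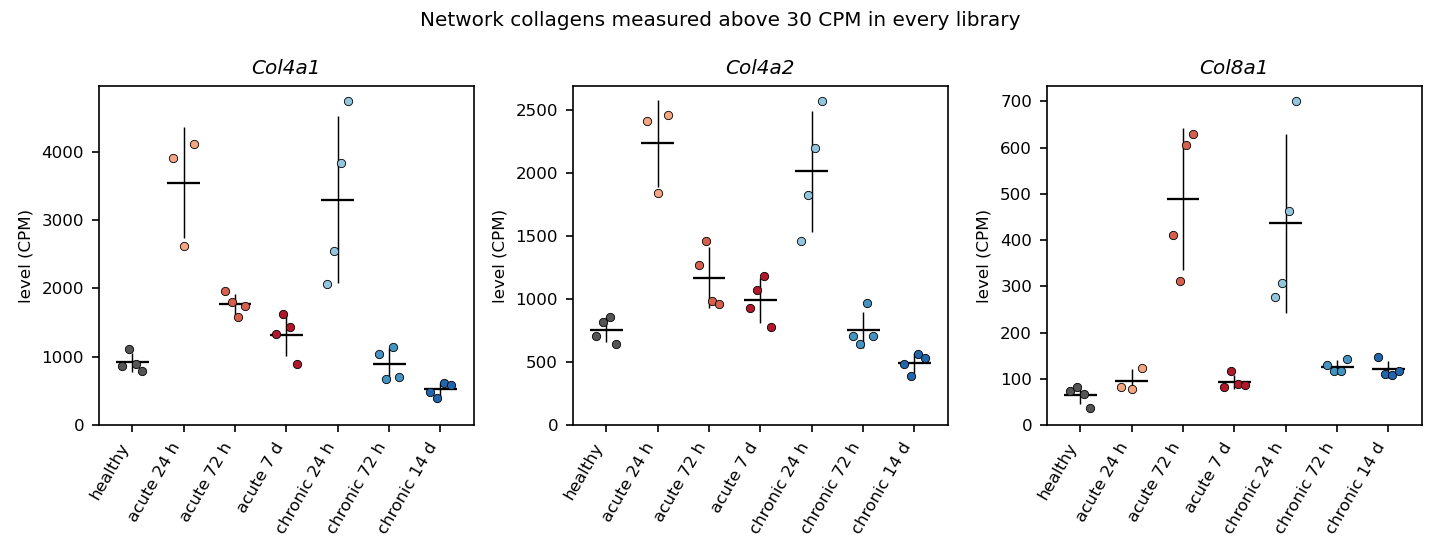
Level in CPM (linear axis from 0) of Col4a1, Col4a2 and Col8a1 in each of the 27 libraries by group; points are libraries, horizontal lines the group means and vertical lines ± 1 SD. Col4a1 and Col4a2 peak at both 24 h times, whereas Col8a1 peaks at acute 72 h (311 to 630 CPM) and chronic 24 h (277 to 700 CPM).

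Summed markers of sinusoidal endothelial cells, which also make type IV collagen, were 109 to 342 CPM in healthy HSCs. They were 56.8 to 77.4 CPM at acute 24 h, below every healthy library, and 44.3 to 147 CPM at chronic 24 h, which overlapped the healthy libraries. Of the 8 markers, 5 were called lower and 1 higher at acute 24 h, and 4 were called lower at chronic 24 h. All 8 were detected in each group. At chronic 14 d, where Col4a1 and Col4a2 were lowest, the endothelial sum was 302 to 483 CPM. The part of endothelial cells in the Col4a1 and Col4a2 results was not tested.

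The α1 to α2 ratio within a library does not depend on scaling between libraries. Col4a1 had 1.04 to 1.37 counts for each Col4a2 count in healthy libraries, 1.42 to 1.68 at acute 24 h, 1.23 to 1.81 at acute 72 h and 1.40 to 1.85 at chronic 24 h. At chronic 14 d the ratio was 0.999 to 1.11. The log2 ratio was higher than in healthy HSCs by 0.39 at chronic 24 h (two-sided exact permutation p = 0.0286, the smallest that 4 against 4 libraries can give) and by 0.37 at acute 24 h (exact permutation p = 0.0571, the smallest that 3 against 4 can give). Neither passed after adjustment over the 6 groups (adjusted exact permutation p = 0.114 for each). Per kilobase of exon, the α1 and α2 chains together made up nearly all type IV transcripts: Col4a1 took 51.7% ± 2.81 and Col4a2 48.1% ± 2.76 in healthy HSCs (SD, n = 4), and 58.2% ± 2.12 and 41.8% ± 2.12 at acute 24 h (SD, n = 3).

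The balance of Col4a1 against Col1a1, the main chain of fibrillar type I collagen, changed over the course (counts within a library, not corrected for gene length). Healthy libraries held 2.95 to 5.36 Col4a1 counts for each Col1a1 count, and acute 24 h libraries 4.95 to 7.47. By acute 72 h the ratio had dropped to 0.292 to 0.835 and by acute 7 d to 0.120 to 0.202. It was 0.441 to 0.728 at chronic 24 h, 0.175 to 0.230 at chronic 72 h and 0.666 to 1.53 at chronic 14 d. The log2 ratio differed from healthy by -2.87 at chronic 24 h, -4.3 at chronic 72 h, -2.25 at chronic 14 d, -3.06 at acute 72 h and -4.8 at acute 7 d (adjusted two-sided exact permutation p = 0.0343 for each), and by 0.58 at acute 24 h (adjusted exact permutation p = 0.114). Col1a1 itself went from 230 ± 74.9 CPM in healthy HSCs (SD, n = 4) to 565 ± 45.8 at acute 24 h (SD, n = 3) and 9357 ± 3364 at acute 7 d (SD, n = 4), so the ratio falls while Col4a1 is at or above its healthy level in the acute course.

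**Figure D3:**
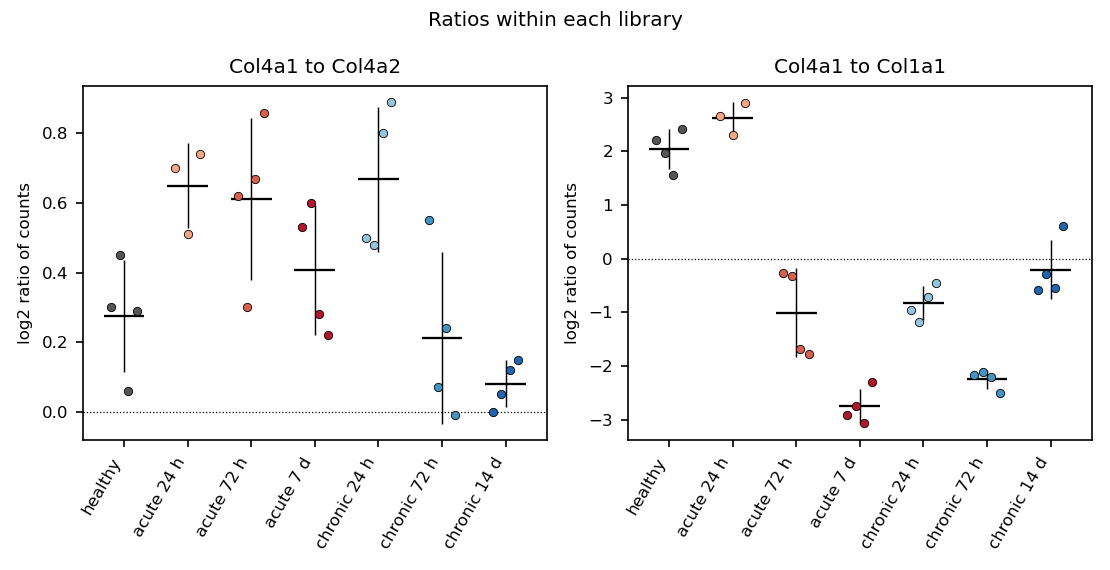
Log2 ratio of Col4a1 counts to Col4a2 counts (left) and to Col1a1 counts (right) within each library; points are libraries, horizontal lines the group means and vertical lines ± 1 SD, and the dotted line is a ratio of 1. The Col4a1 to Col1a1 ratio lies above 1 in every healthy and acute 24 h library and below 1 in every other library except 1 of chronic 14 d, whose ratio was 1.53.

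Col4a5 (ENSMUSG00000031274), the α5 chain, was close to absent in healthy HSCs and at acute 24 h and appeared later. It measured 0, 1.27, 1.94 and 0.780 CPM in healthy libraries and 0.623, 0 and 0.351 CPM at acute 24 h, which overlap. At acute 72 h it stood at 13.1, 15.5, 28.9 and 24.8 CPM and at acute 7 d at 22.6, 42.5, 48.7 and 37.2 CPM. After the chronic course it read 20.7, 24.3, 64.4 and 47.0 CPM at 24 h, 38.5, 36.0, 104 and 61.3 CPM at 72 h and 9.59, 12.9, 26.8 and 14.4 CPM at 14 d. In these 5 groups every library exceeded every healthy one.

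The rises of Col4a5 over healthy were 20.3-fold at acute 72 h (log2 4.35, SE 0.64, edgeR adjusted p = 3.74e-05), 37.3-fold at acute 7 d (log2 5.22, SE 0.66, edgeR adjusted p = 5.21e-06), 38.7-fold at chronic 24 h (log2 5.27, SE 0.66, edgeR adjusted p = 2.04e-06) and 59.2-fold at chronic 72 h (log2 5.89, SE 0.67, edgeR adjusted p = 1.69e-06). At chronic 14 d it remained 15.8-fold higher (log2 3.98, SE 0.64, edgeR adjusted p = 0.00035). The healthy libraries held 0, 13, 23 and 9 Col4a5 counts, so the size of these folds is imprecise although the groups do not overlap. Per kilobase, Col4a5 was 0.0602% ± 0.0473 of type IV transcripts in healthy HSCs (SD, n = 4) and 3.56% ± 1.23 at chronic 72 h (SD, n = 4), its highest share. Portal fibroblast and mesothelial markers were also lowest in sum at acute 24 h (54.4 to 103 CPM) and highest at chronic 72 h (489 to 944 CPM), with acute 72 h (139 to 245 CPM), acute 7 d (337 to 401 CPM) and chronic 24 h (318 to 431 CPM) between, against 95.4 to 126 CPM in healthy HSCs. By group means, chronic 14 d departed from this parallel. Its marker sum (258 to 432 CPM) lay above that of acute 72 h, while its mean Col4a5 level (15.9 CPM) was below that of acute 72 h (20.6 CPM). The Col4a5 libraries of these groups overlapped (9.59 to 26.8 and 13.1 to 28.9 CPM), and the groups were not compared by a test. With depth class as a term the order was reversed, at log2 5.20 over healthy for chronic 14 d and 4.35 for acute 72 h. The part of portal fibroblast and mesothelial cells in the Col4a5 result was not tested.

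Col4a6, the head-to-head neighbour of Col4a5, stayed near the limit of detection. It had no count in any healthy or acute 24 h library, and 0 in 4 healthy libraries allows up to 0.0671 CPM (3 counts over the group, counting error only). Elsewhere it reached at most 7 counts in a library, with 14 counts over chronic 72 h, 6 over chronic 14 d, 5 over acute 7 d, 3 over acute 72 h and 2 over chronic 24 h, and it was not tested. The chronic 72 h counts came from replicates 3 and 4 alone, with 7 each, and those of chronic 14 d from replicates 1 and 2, with 2 and 4.

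Col4a3 (ENSMUSG00000079465) and Col4a4 (ENSMUSG00000067158), the α3 and α4 chains that join α5 in the glomerular protomer, stayed at a few CPM and were highest at chronic 72 h. Col4a3 read 2.18, 1.95, 3.29 and 0.780 CPM in healthy HSCs and 6.53, 5.29, 11.1 and 7.76 CPM at chronic 72 h, with no overlap. The difference was 3.74-fold (log2 1.90, SE 0.68, edgeR adjusted p = 0.0496), a call that was lost when any 1 of the 8 libraries was left out, with log2 values of 1.63 to 2.23. Col4a4 stood at 1.36, 3.71, 3.12 and 0.953 CPM in healthy HSCs and 6.27, 5.57, 6.23 and 7.36 CPM at chronic 72 h, a 2.78-fold difference that did not pass (edgeR adjusted p = 0.106).

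Between times of the chronic course, Col4a4 did change. At chronic 24 h it was at 1.20, 1.37, 0.702 and 0 CPM (8, 10, 8 and 0 counts), below all 4 libraries of chronic 72 h. It rose 8.09-fold between these times (log2 3.02, SE 0.70, edgeR adjusted p = 0.00441), a fold whose size is imprecise at such counts. It was also 4.46-fold higher at chronic 14 d than at chronic 24 h (log2 2.16, SE 0.69, edgeR adjusted p = 0.0268), where chronic 14 d replicate 4, at 0.881 CPM, overlapped the 24 h libraries. That second call was lost without chronic 24 h replicate 3 or 4 or chronic 14 d replicate 1, 2 or 3 (log2 2.11, 1.74, 2.08, 2.10 and 2.01), and with depth class as a term (log2 1.93, edgeR adjusted p = 0.0771). The opposite strand of Col4a3 carries C430014B12Rik, and the use of strand in counting is not stated, so reads of the 2 cannot be told apart.

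Col8a1 (ENSMUSG00000068196), the α1 chain of type VIII collagen, had 2 separate peaks. It was at 74.0, 81.8, 66.7 and 38.0 CPM in healthy HSCs and 83.3, 77.7 and 124 CPM at acute 24 h, which overlapped. At acute 72 h it reached 411, 311, 605 and 630 CPM and by acute 7 d it was back at 81.8, 116, 88.8 and 86.6 CPM. At chronic 24 h it was at 277, 307, 463 and 700 CPM, then 130, 116, 116 and 144 CPM at chronic 72 h and 147, 110, 108 and 116 CPM at chronic 14 d. The acute 72 h and chronic 24 h libraries stood above those of every other group.

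Against healthy the Col8a1 rise was 7.52-fold at acute 72 h (log2 2.91, SE 0.29, edgeR adjusted p = 3.03e-07) and 6.71-fold at chronic 24 h (log2 2.75, SE 0.29, edgeR adjusted p = 1.66e-07). At chronic 72 h and chronic 14 d all libraries lay above healthy, by 1.94-fold (edgeR adjusted p = 0.0145) and 1.85-fold (edgeR adjusted p = 0.0436), just short of a call. With depth class as a term both passed, at log2 1.24 and 1.43. Vascular smooth muscle markers, a set of 3 contractile genes that activated HSCs can also express, summed to 21.3 to 27 CPM at acute 72 h and 12.9 to 120 CPM at chronic 24 h, against 4.42 to 10.9 CPM in healthy HSCs, with 1 of 3 and 3 of 3 called higher. Their part in the Col8a1 result was not tested.

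Col15a1 (ENSMUSG00000028339), the proteoglycan collagen of type XV, was the only member called higher by edgeR in all 6 injured groups. It measured 1.18, 1.95, 3.2 and 1.21 CPM in healthy HSCs. It stood at 99.7, 151, 152 and 157 CPM at chronic 24 h, 32.7, 32.3, 47.4 and 31.1 CPM at chronic 72 h and 17.0, 17.1, 27.3 and 19.8 CPM at chronic 14 d, each group above every library of the next. In the acute course it was at 7.39, 2.17 and 3.60 CPM at 24 h, 7.00, 3.55, 7.4 and 8.67 CPM at 72 h, and 78.6, 71.8, 76.9 and 30.2 CPM at 7 d.

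Against healthy, Col15a1 was 73.5-fold higher at chronic 24 h (log2 6.20, SE 0.43, edgeR adjusted p = 5.03e-10), 18.9-fold at chronic 72 h (log2 4.24, SE 0.40, edgeR adjusted p = 1.58e-07) and 10.7-fold at chronic 14 d (log2 3.42, SE 0.39, edgeR adjusted p = 9.16e-06). It was 33.8-fold higher at acute 7 d (log2 5.08, SE 0.42, edgeR adjusted p = 2.03e-08) and 3.51-fold at acute 72 h (log2 1.81, SE 0.38, edgeR adjusted p = 0.00139). The acute 24 h call (2.31-fold, log2 1.21, SE 0.41, edgeR adjusted p = 0.0249) came from overlapping groups and was lost without acute 24 h replicate 1 (log2 0.61), healthy replicate 1 or healthy replicate 4 (log2 1.04 each). The antisense gene Gm12426 overlaps Col15a1 exons, and without strand its reads cannot be told apart from those of Col15a1.

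Portal fibroblast and mesothelial markers were higher in several of the same groups: their sum was 95.4 to 126 CPM in healthy HSCs, 318 to 431 CPM at chronic 24 h, 489 to 944 CPM at chronic 72 h, 258 to 432 CPM at chronic 14 d and 337 to 401 CPM at acute 7 d. Of the 7 tested markers of the list of 8, 3 were called higher and 1 lower at chronic 24 h and 4 higher at chronic 72 h. The order of the groups differed from that of Col15a1, which was highest at chronic 24 h, where the marker sum was below every library of chronic 72 h. The mesothelial marker Msln was at 0 in all acute 24 h and acute 72 h libraries. The part of these cells in the Col15a1 rise was not tested.

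Col18a1 (ENSMUSG00000001435), the precursor of endostatin, was the 1 member called lower by edgeR at 24 h after acute injury. DESeq2 also called Col4a3 lower there (log2 -1.84, DESeq2 adjusted p = 0.0435), which edgeR did not (log2 -1.79, edgeR adjusted p = 0.0933). Col18a1 stood at 14.4, 23.8, 29.4 and 72.1 CPM in healthy HSCs, the last well apart from the others, and at 11.5, 5.82 and 9.31 CPM at acute 24 h, below every healthy library. The fall was 3.94-fold (log2 -1.98, SE 0.43, edgeR adjusted p = 0.00105). It then read 20.9, 14.4, 35.9 and 27 CPM at acute 72 h and 49.8, 56.8, 62.4 and 48.5 CPM at acute 7 d.

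After the chronic course Col18a1 was at 49.6, 36.7, 30.1 and 38.1 CPM at 24 h, 74.9, 56.0, 70.4 and 41.4 CPM at 72 h and 88.2, 134, 63.6 and 52.4 CPM at 14 d. It was 2.42-fold higher than healthy at chronic 14 d (log2 1.28, SE 0.38, edgeR adjusted p = 0.0357), with overlapping libraries. That call was lost without healthy replicate 1, 2 or 3 or chronic 14 d replicate 1 or 2 (log2 1.02, 1.13, 1.20, 1.26 and 1.0), and with depth class as a term it was 0.99 (edgeR adjusted p = 0.306). Without healthy replicate 4 the differences at chronic 72 h and acute 7 d, not called with it, were called at log2 1.43 and 1.27.

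Hepatocyte markers were lowest in the group where Col18a1 was lowest, but did not follow it in every library. Their sum was 93.2 to 326 CPM at acute 24 h, 573 to 989 CPM in healthy replicates 1 to 3 and 3495 CPM in healthy replicate 4, the library with the highest Col18a1. At acute 24 h all 8 hepatocyte markers were called lower than in healthy HSCs (median log2 -3.44). At chronic 14 d 1 of the 8 was called higher (median log2 1.45). The sum there was 1702 to 8498 CPM, with its highest value in replicate 2, which also had the highest Col18a1. At chronic 72 h, by contrast, replicate 4 had the highest sum (4225 CPM) and the lowest Col18a1 (41.4 CPM). At acute 7 d replicate 1 had the highest sum (3242 CPM), with Col18a1 at 49.8 CPM. None of the 8 markers was at 0 in any group. Summed sinusoidal endothelial markers were 56.8 to 77.4 CPM at acute 24 h, against 109 to 342 CPM in healthy HSCs. Of these 8 markers, 5 were called lower there and 1 higher. At acute 72 h, with 26.7 to 101 CPM, 6 were called lower, while Col18a1 overlapped healthy. At chronic 14 d they summed to 302 to 483 CPM, with none called. The part of hepatocyte or endothelial RNA in the Col18a1 differences was not tested.

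**Figure D4:**
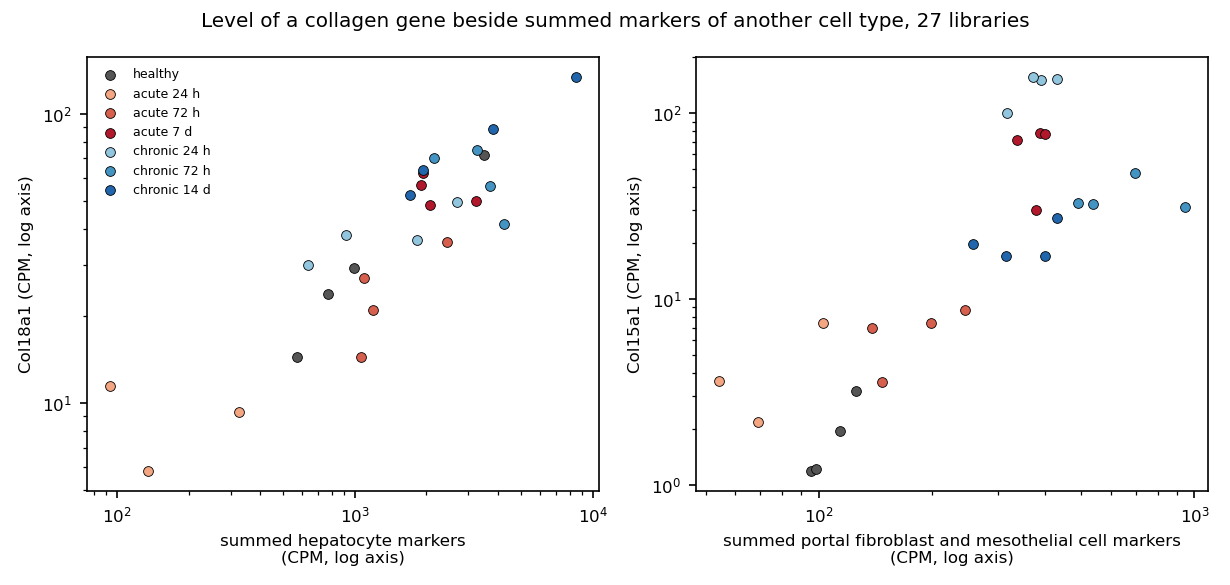
Left, Col18a1 level against the summed level of 8 hepatocyte markers; right, Col15a1 level against the summed level of 8 portal fibroblast and mesothelial markers; each point is 1 of 27 libraries and all axes are CPM on a log scale. Libraries with little hepatocyte signal (acute 24 h, 93.2 to 326 CPM) had the lowest Col18a1, whereas the chronic 24 h libraries had the highest Col15a1 at a marker sum (318 to 431 CPM) below that of chronic 72 h.

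Col13a1 (ENSMUSG00000058806), the transmembrane collagen, was low throughout and dipped at acute 72 h. It read 0.997, 2.93, 6.40 and 5.89 CPM in healthy HSCs, 8.46, 8.25 and 8.95 CPM at acute 24 h and 0.797, 0.779, 0 and 1.32 CPM at acute 72 h. The acute 72 h libraries lay below all those of acute 24 h but overlapped the lowest healthy library. The fall from acute 24 h to 72 h was 11.6-fold (log2 -3.54, SE 0.64, edgeR adjusted p = 0.000255), and that against healthy was 5.53-fold (log2 -2.47, SE 0.60, edgeR adjusted p = 0.00458). With only the healthy and acute 72 h libraries in the fit the second was not called (log2 -2.48, edgeR adjusted p = 0.0895). It was not called against healthy in any other group, although all libraries of acute 24 h (2.1-fold, edgeR adjusted p = 0.161) and of chronic 14 d (2.17-fold, edgeR adjusted p = 0.222) lay above the healthy ones.

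**Figure D5:**
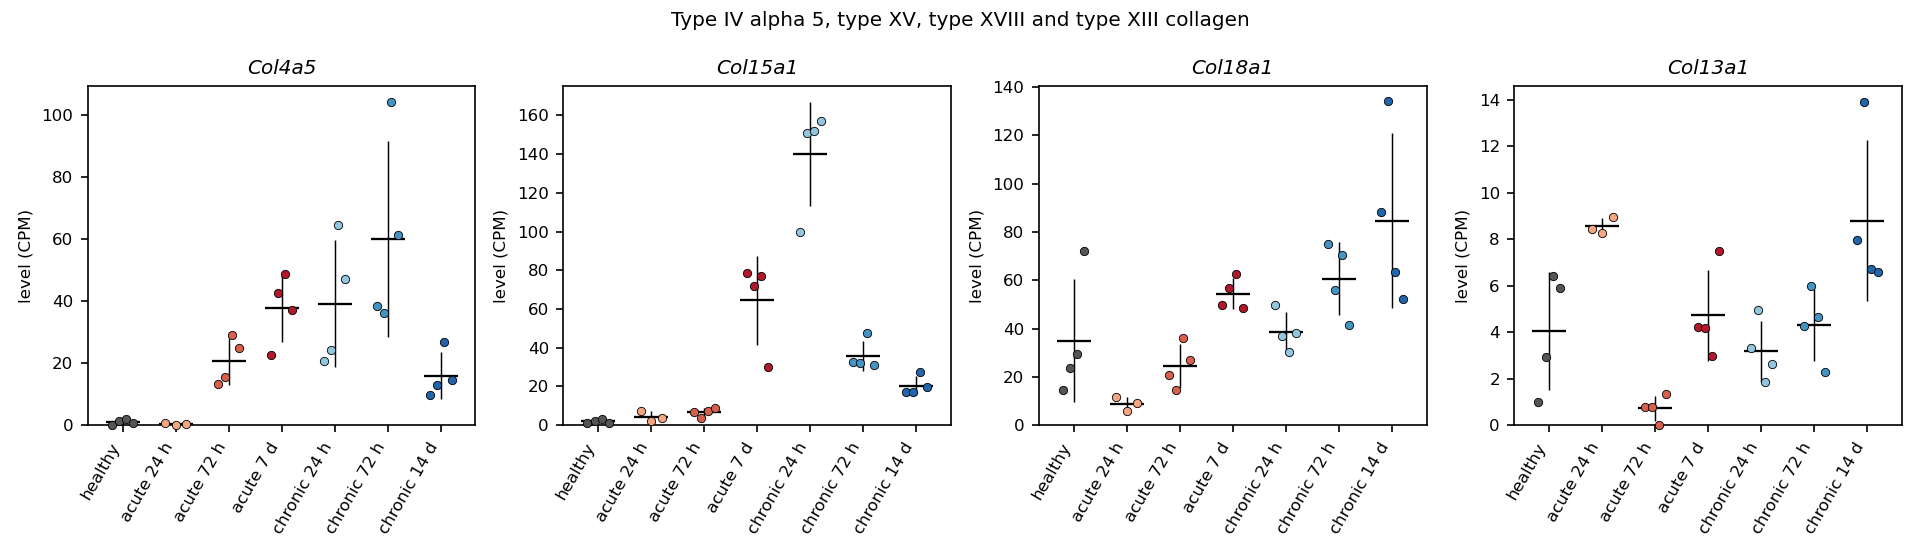
Level in CPM (linear axes from 0) of Col4a5, Col15a1, Col18a1 and Col13a1 in each of the 27 libraries by group; points are libraries, horizontal lines the group means and vertical lines ± 1 SD. Col4a5 and Col15a1 are near 0 in healthy and acute 24 h libraries and high at acute 7 d and chronic 24 h, Col18a1 is lowest at acute 24 h, and Col13a1 is lowest at acute 72 h.

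The first and the repeated injury were compared directly at 24 h, which needs no healthy libraries. Of the 9 tested genes 4 were higher after the chronic course and none was lower by edgeR, against 10.9% and 3.05% of all genes; at an unadjusted edgeR p below 0.05, and by DESeq2, 1 was lower, which in edgeR was Col13a1. Col4a5 differed by a log2 fold change of 6.87 (SE 0.85, edgeR adjusted p = 4.35e-06), Col15a1 by 4.99 (SE 0.46, edgeR adjusted p = 1.26e-07), Col8a1 by 2.20 (SE 0.31, edgeR adjusted p = 2.54e-05) and Col18a1 by 2.12 (SE 0.44, edgeR adjusted p = 0.00114). All 4 chronic libraries exceeded all 3 acute ones for each of these genes. Markers of other cells were called higher in the same direction. These were 6 of 8 for hepatocytes (median log2 3.24) and 4 of 7 tested for portal fibroblasts and mesothelial cells (2.42). For vascular smooth muscle it was 2 of 3 (3.10), for macrophages 4 of 8 (2.74) and for sinusoidal endothelial cells 1 of 8 (0.92). None of these was called lower, and the part of these cells in the 4 differences was not tested.

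From acute 24 h to 72 h, 3 genes rose and 2 fell, against 11.2% and 3.76% of all genes. The log2 fold change was 5.94 for Col4a5 (SE 0.83, edgeR adjusted p = 1.62e-05), 2.36 for Col8a1 (SE 0.32, edgeR adjusted p = 9.16e-06) and 1.47 for Col18a1 (SE 0.43, edgeR adjusted p = 0.0138), while Col4a1 and Col13a1 fell. The Col18a1 call was lost without acute 24 h replicate 2 or acute 72 h replicate 3 (log2 1.24 and 1.15). Over the same step 6 of 8 hepatocyte, 2 of 7 tested portal fibroblast and mesothelial and 1 of 3 smooth muscle markers were called higher. Of 8 endothelial markers, 0 were higher and 1 was lower. The part of these cells in the changes was not tested.

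In recovery from the chronic course Col4a1, Col4a2, Col8a1 and Col15a1 fell. From chronic 24 h to 72 h, 1 gene was higher and 4 were lower, against 4.72% and 3.65% of all genes: Col4a1 fell by 1.89 on the log2 scale (SE 0.25, edgeR adjusted p = 1.82e-05), Col4a2 by 1.41 (SE 0.20, edgeR adjusted p = 3.08e-05), Col8a1 by 1.79 (SE 0.28, edgeR adjusted p = 0.000108) and Col15a1 by 1.96 (SE 0.35, edgeR adjusted p = 0.00044). From chronic 24 h to 14 d the same 4 genes were lower and 2 were higher, against 6.11% and 6.65% of all genes. On the log2 scale the change was -2.66 for Col4a1, -2.03 for Col4a2, -1.86 for Col8a1 and -2.78 for Col15a1, with libraries apart in each case. The 2 higher genes were Col4a4 and Col18a1 (log2 1.13, SE 0.38, edgeR adjusted p = 0.0314). The Col18a1 call was lost without chronic 24 h replicate 2, 3 or 4 or chronic 14 d replicate 1 or 2 (log2 0.86 to 1.17) and with depth class as a term (log2 1.0, edgeR adjusted p = 0.114). Over the same interval 3 of 8 hepatocyte markers (median log2 1.68) and 6 of 8 sinusoidal endothelial markers (median log2 1.83) were called higher. Of the vascular smooth muscle markers, 3 of 3 were called lower. The part of these cells in the changes was not tested. Col4a5 did not follow the 4 genes that fell: it was 1.53-fold higher at 72 h (edgeR adjusted p = 0.483), and its lower level at 14 d (log2 -1.3, SE 0.53, edgeR adjusted p = 0.0838) did not pass.

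The genes that work with type IV collagen gave a mixed picture. Their counts stand against 11.2% of all genes called higher and 8.11% lower at chronic 24 h, and 9.41% higher and 12.5% lower at acute 24 h. Of 17 tested basement membrane partners (laminins, nidogens, perlecan and others), 3 were higher and 1 lower at chronic 24 h, and 1 higher and 4 lower at acute 24 h, the time of the Col4a1 peak. Their median log2 fold change was 0.12 at chronic 24 h and -0.60 at acute 24 h, where that of all genes was -0.03 and -0.12. Lama1, the α1 chain of laminin, fell from 140 ± 59.4 CPM (SD, n = 4) in healthy HSCs to 22 ± 6.08 (SD, n = 4) at chronic 24 h (log2 -2.67, SE 0.35, edgeR adjusted p = 2.92e-06). Lamb3, a laminin β chain, rose there from 2.59 ± 0.468 CPM (SD, n = 4) to 7.76 ± 0.835 (SD, n = 4) (log2 1.58, SE 0.23, edgeR adjusted p = 1.06e-05).

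Among 24 assembly and crosslinking genes, 9 were higher and 1 lower at chronic 24 h, with a median of 0.68 against -0.03 over all genes. At acute 24 h 2 were higher and 2 lower, both below the shares of all genes, with a median of 0.47. Lox, the enzyme that crosslinks collagens through lysine, rose from 7.41 ± 2.08 CPM (SD, n = 4) to 631 ± 353 (SD, n = 4) at chronic 24 h (log2 6.41, SE 0.53, edgeR adjusted p = 6.36e-09). P4ha3, a prolyl hydroxylase subunit, had no count in healthy HSCs and was at least 51.6-fold higher at chronic 24 h (131 counts, against a floor of 3 counts over the group). Colgalt2, which adds galactose to collagen, fell to 0.312 ± 0.232 CPM (SD, n = 4) from 5.16 ± 2.51 (SD, n = 4) (log2 -4.05, edgeR adjusted p = 0.000597).

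The proteases that cut type IV collagen or release endostatin, listed with their inhibitors, were mostly higher at chronic 24 h and chronic 72 h and at the later acute times. Of 13 tested, 11 were called higher at chronic 24 h, with a median of 2.45 against -0.03 over all genes, and 9 at chronic 72 h. The shares of all genes called higher were 11.2% and 7.88% there. At acute 24 h 3 were higher and 1 lower, against 9.41% and 12.5% of all genes. At acute 72 h 7 were higher, against 8.23% of all genes, and at acute 7 d 9 were higher, against 9.23% (median 2.13 against 0.01 over all genes). Macrophage markers, which summed to 100 to 418 CPM in healthy HSCs with Marco at 0, were called higher for 4 of 8 at chronic 24 h (153 to 790 CPM), 4 of 8 at chronic 72 h (305 to 1072 CPM) and 6 of 8 at acute 7 d (462 to 1919 CPM), and their part in these counts was not tested. Timp1, an inhibitor, rose from 0.633 ± 0.731 CPM (SD, n = 4) to 149 ± 18.5 (SD, n = 4) at chronic 24 h (log2 7.86, SE 1.1, edgeR adjusted p = 9.56e-06). Mmp9, a gelatinase that cuts type IV collagen, had no count in healthy HSCs and was at least 92.1-fold higher at chronic 24 h and at least 12.7-fold higher at acute 24 h. Of the 13, 5 were called higher at chronic 14 d, against 4.55% of all genes.

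Of 15 tested receptors, 2 were higher and 1 lower at chronic 24 h, close to the shares of all genes (11.2% and 8.11%), with a median of 0.60. These were Itga2 (log2 3.8, edgeR adjusted p = 0.00432) and Itga11 (log2 2.22, edgeR adjusted p = 9.04e-05), both α subunits of collagen-binding integrins, and Itgb3 (log2 -1.15, edgeR adjusted p = 0.0099), a β subunit that pairs with αv. Itgb3 was higher at acute 24 h (log2 1.24, SE 0.35, edgeR adjusted p = 0.00746). The fibrillar collagens, 10 tested, had 4 higher and 1 lower at chronic 24 h and 1 higher and 3 lower at acute 24 h, with medians of 1.20 and -0.42. The acute median was -0.34 with the gene at 0 in a group set at its bound. Col1a1 (log2 4.62) and Col5a2 (log2 2.24) rose most and Col24a1 fell (log2 -3.8) at chronic 24 h. Of 15 other non-fibrillar collagens, 5 were higher and 3 lower at chronic 24 h, and 1 higher and 10 lower at acute 24 h, with medians of 0.63 and -1.06. The shares of all genes at acute 24 h were 9.41% higher and 12.5% lower, and the 1 of 10 fibrillar collagens called higher there was near that share. Col12a1, a fibril-associated collagen, rose at both times (log2 5.21 and 3.91), while Col14a1 (log2 -1.61 and -1.74) and the transmembrane Col25a1 (log2 -2.91 and -1.77) fell at both. Col28a1 had no count in healthy HSCs and 26 counts over the chronic 24 h libraries, at least 10.2-fold higher.

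Across the 27 libraries, the genes whose log2 CPM was most like that of Col4a1, searched among the 10293 genes that averaged 3 or more on that scale, were Cttn (Pearson r = 0.95), Tmem43 (r = 0.93) and Sec61a1 (r = 0.93), the last a subunit of the channel through which secretory proteins enter the endoplasmic reticulum. Col4a2 had r = 0.98 with Col4a1. For Col4a5 they included Ltbp2 (r = 0.98), a matrix protein of the latent TGF-beta binding family, and Epdr1 (r = 0.94). For Col18a1 they included Tdo2 and Xylb (r = 0.93 each), of which Tdo2 serves tryptophan breakdown in hepatocytes. Ltbp2 went from 6.14 ± 3.05 CPM in healthy HSCs (SD, n = 4) and 3.53 ± 2.21 at acute 24 h (SD, n = 3) to 281 ± 115 at chronic 24 h (SD, n = 4). Within the list, Col4a1 had r = -0.11 with Col4a5, and Col4a5 had r = 0.81 with Col15a1. The points share groups and depth, so these values are a description.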

How the data were processed

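RNA of sorted HSCs was sequenced as single-end reads and, per the submitters' processing notes and the study's methods, aligned with STAR to GRCm38 and assigned to genes with StringTie. The authors deposited raw counts per gene, which were used as they stand, and whether counting used strand is not given in the sources used here. Groups came from the sample labels. All 27 libraries were fitted in 1 edgeR 4.0.16 quasi-likelihood model (robust, TMM factors, filterByExpr by group, R 4.3.3) with Benjamini-Hochberg adjustment over 18758 genes, after a check on simulated data. The call rule was an adjusted p below 0.05 together with more than a 2-fold difference. Ratios of counts within a library were compared by two-sided exact permutation tests (scipy 1.17.1), adjusted over 6 groups. Beside the members, the text names, from each related list, up to 2 called genes with the highest and 2 with the lowest log2 fold change at chronic 24 h against healthy, and the 3 genes most correlated with each of Col4a1, Col4a5 and Col18a1; some genes that this rule names are not reported here. The members and lists were chosen with earlier results of these data known. Replicate numbers were not used to pair libraries. Alternatives covered normalization, DESeq2 1.42.0, filters, thresholds, depth class, a replicate block, the groups in the fit and each library left out. Depth was 6314801 to 13052838 counts per library. Intervals and limits from counts of 0 cover counting error only.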

Additional observations from a re-analysis of the deposited data

Results flagged for a closer look

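In 54 sets of 4 libraries (a gene in a group), 4 held a library far from the other 3 by Dixon's test, which flags about 1 set in 20 by chance. Col4a4 was low in chronic 14 d replicate 4, at 0.881 CPM. Col15a1 was low in acute 7 d replicate 4, at 30.2 CPM, and in chronic 24 h replicate 1, at 99.7 CPM, and was high in chronic 72 h replicate 3, at 47.4 CPM. In each case the Col15a1 library still lay above every healthy library.

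The response at 24 h differed between the repeated and the first injury for 4 genes, by edgeR's test of the difference itself, with log2 differences, chronic minus acute, of 6.87 for Col4a5 (adjusted p = 4.35e-06), 4.99 for Col15a1 (adjusted p = 1.26e-07), 2.20 for Col8a1 (adjusted p = 2.54e-05) and 2.12 for Col18a1 (adjusted p = 0.00114). All 4 chronic libraries lay above all 3 acute libraries for each gene. Markers of several other cell types were also called higher in this comparison, and their part was not tested.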

How the results depend on the processing

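Of 1483 values of single genes under alternatives, 1410 kept their side of the call, 31 became called and 42 lost the call. In 38 of the 1410, belonging to 11 results of which 0 were called, the sign changed, and the largest of those 11 had a log2 size of 0.62. Of the counts and ratios, 464 values stayed within 1.5 times the reported count or on the same side of the threshold and 22 did not. The count of genes lower at chronic 24 h than healthy became 1 at an adjusted p below 0.1. With no fold minimum, genes lower at chronic 14 d than healthy became 2 and genes higher at acute 72 h than healthy became 5. Genes lower at acute 24 h than healthy became 2 by DESeq2 and at an adjusted p below 0.1, and ranged from 1 to 2 with 1 library left out, with 2 without healthy replicate 1. Genes lower at acute 72 h than healthy became 0 with only the 2 groups in the fit. Genes higher at chronic 14 d than at chronic 24 h became 0 with depth class as a term, and ranged from 0 to 2 with 1 library left out: 0 without chronic 24 h replicate 3 or 4 or chronic 14 d replicate 1 or 2, and 1 without chronic 14 d replicate 3. Genes higher at chronic 72 h than at chronic 24 h became 2 by DESeq2 and at an adjusted p below 0.1. Genes lower at acute 72 h than at acute 24 h became 1 with library size alone and 1 with the replicate block, and ranged from 1 to 2 with 1 library left out, with 1 without acute 24 h replicate 1 or 3. Genes lower at chronic 24 h than at acute 24 h became 1 with only the 2 groups in the fit, by DESeq2 and at an adjusted p below 0.1. Beyond the steps named, the cause of these changes was not tested. Taken over all groups, libraries with the same replicate number did not deviate together (median correlation 0.014 over 78 pairs, against -0.0031 over 234 pairs of different number), so no pairing by number was seen. That median cannot exclude a batch shared by some groups only. Replicates 1 and 2 of chronic 24 h and chronic 72 h, for instance, were all of lower depth. At chronic 14 d, where every library was of lower depth, the split of all called genes against healthy, 854 higher and 219 lower, became 1100 and 106 with library size alone (median of all genes 0.145), 427 and 321 with depth class as a term, and 686 and 143 with no filter. Against chronic 24 h, 1248 higher and 1147 lower became 1641 and 800 with library size alone (median 0.177).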
